A study of Mus musculus with 36 samples.

Results

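Hcrt, the gene of prepro-hypocretin, and the 9 genes chosen with it from its stretch of mouse chromosome 11 were followed through 36 RNA-seq libraries of hypothalamus, cortex and brainstem. The 10 genes are rows of the count tables whose Ensembl identifiers map, through the GENCODE M21 annotation of GRCm38, to Hcrt, Kcnh4, Ghdc, Rab5c, Dhx58, Nkiras2, Kat2a, Fkbp10, Nt5c3b and Acly, and all 10 were found. They are 10 of the 38924 genes in the tables and 10 of the 40 genes that lie within 0.4 Mb of Hcrt. The set was chosen by position with the knockout results of these same libraries in view. Differences between knockout and wild type are therefore given below as descriptions, with no p-value, and the tests that are read concern the transgenic line, the wild types and the tissues.

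The libraries come from 2 mouse models of narcolepsy on a C57BL/6 background, with 3 libraries per genotype and tissue. The groups are Hcrt-ataxin-3 transgenic mice, wild-type mice of that line, Hcrt knockout mice and wild-type mice of the knockout line. In the transgenic line the Hcrt promoter drives a toxic form of ataxin-3, so that the Hcrt gene is intact and the cells that use it die. In the knockout line the gene itself is disrupted, and the structure of the allele is not given in the sources used here. The labels give no age and do not say whether replicate libraries came from different mice, so each p-value reflects library-to-library spread, which may be technical.

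Hypocretin, also called orexin, is made by a small population of neurons in the lateral hypothalamus that project through most of the brain and hold the animal awake. Prepro-hypocretin is cut into a pair of peptides that act on the receptors Hcrtr1 and Hcrtr2. Loss of the peptide or of its neurons gives narcolepsy with cataplexy in mice, dogs and people. The cell bodies that transcribe Hcrt sit in the hypothalamus, while cortex and brainstem receive their axons.

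The 10 genes lie on both sides of Hcrt and all coordinates are GRCm38, chromosome 11. Hcrt (ENSMUSG00000045471) covers 100761069 to 100762931 on the minus strand. Kcnh4 (ENSMUSG00000035355), which encodes a voltage-gated potassium channel of the EAG type, lies on the same strand at 100740376 to 100759942, and 1126 bases separate it from Hcrt. Ghdc (ENSMUSG00000017747), which encodes a protein with a GH3 domain, lies on the same strand at 100766032 to 100770957, 3100 bases from Hcrt on the other side. On the strand that carries all 3, the order of transcription is Ghdc, Hcrt, Kcnh4. Farther from Hcrt on the side of Kcnh4 come Rab5c at 22.9 kb, Kat2a at 48.6 kb, Dhx58 at 56.8 kb, Nkiras2 at 133 kb, Acly at 233 kb, Nt5c3b at 319 kb and Fkbp10 at 336 kb.

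The promoters of Hcrt and of the pair next to it are shown because these were the 3 genes of the set with the largest knockout differences in hypothalamus. Each run is the 250 bases before the gene's start in the RefSeq promoter table (GRCm38.p6, minus strand, written 5′ to 3′ on the gene's strand), at chr11:100762932-100763181 for Hcrt, chr11:100759779-100760028 for Kcnh4 and chr11:100770958-100771207 for Ghdc. Capitals mark matches, on either strand, to any of 5 motifs that were searched: TATAAA of the TATA box, CACGTG of the E-box, CCAAT of the CCAAT box, GGGCGG of the GC box and TGACGT of the cyclic AMP response element.
Hcrt: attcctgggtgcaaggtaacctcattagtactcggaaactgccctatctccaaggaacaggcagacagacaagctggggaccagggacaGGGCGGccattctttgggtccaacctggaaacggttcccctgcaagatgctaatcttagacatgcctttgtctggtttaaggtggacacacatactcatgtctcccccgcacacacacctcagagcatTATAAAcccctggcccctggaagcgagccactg
Kcnh4: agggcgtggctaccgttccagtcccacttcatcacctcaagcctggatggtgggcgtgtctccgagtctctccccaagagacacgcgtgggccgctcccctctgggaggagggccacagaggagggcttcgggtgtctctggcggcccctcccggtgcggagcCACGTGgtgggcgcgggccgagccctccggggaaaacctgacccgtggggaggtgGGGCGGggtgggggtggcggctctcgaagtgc
Ghdc: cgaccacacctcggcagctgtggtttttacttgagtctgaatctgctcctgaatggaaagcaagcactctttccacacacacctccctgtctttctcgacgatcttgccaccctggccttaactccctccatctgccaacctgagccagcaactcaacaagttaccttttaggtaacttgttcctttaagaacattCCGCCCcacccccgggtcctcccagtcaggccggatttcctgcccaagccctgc
The Hcrt window holds TATAAA beginning 33 bases before the start, and GGGCGG at 161 bases. The Kcnh4 window holds CACGTG at 87 bases and GGGCGG at 32 bases, with no TATAAA. The RefSeq start of Kcnh4 lies inside the GENCODE gene given above, which runs to 100759942. Both Kcnh4 matches therefore lie within that gene. In the Ghdc window the only match is GGGCGG at 54 bases, read on the opposite strand. Of the 32851 windows in the table, 12.4% hold TATAAA, 6.02% CACGTG, 33.8% CCAAT, 32.7% GGGCGG and 6.47% TGACGT. The Kcnh4 window is the richest in G and C of the 3, at 70.8% with 20 CpG, against 53.6% with 5 CpG for Hcrt and 54% with 7 CpG for Ghdc. The median over all windows is 52.4%. A motif match describes the letters only and is not evidence of a bound site. The table held a window for 8 of the 10 genes.

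Between 21915540 and 47057537 reads per library were counted on genes. Each library carried the markers of its labelled tissue, since the summed level of the hypothalamus list was 913 to 2024 CPM in hypothalamus and at most 16.3 CPM elsewhere, and the cortex list was 1600 to 1779 CPM in cortex and at most 203 CPM elsewhere. The dissections of hypothalamus were not all clean. Transgenic library 1 held transcripts of nasal tissue, with 594 CPM of Omp, the olfactory marker protein, against 1.23 and 1.47 CPM in the other transgenic libraries, and 325 CPM of the collagen gene Col1a1, against 9.16 and 8.15 CPM. Pituitary transcripts stood out in libraries 1 and 3 of the ataxin-3 line wild types and library 3 of the knockout line wild types, with 22207, 11713 and 16253 CPM of growth hormone mRNA (Gh) and at most 22.1 CPM in the other 9 libraries. Hcrt, Kcnh4 and other values that moved without these libraries are given with and without them. Levels are CPM, counts divided by library size and scaled by TMM factors over all 36 libraries, and differences are log2 fold changes from edgeR with their standard error (SE).

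In wild-type hypothalamus, cortex and brainstem, Hcrt and Kcnh4 had different regional patterns, and the other genes varied less between tissues. Hcrt was the most abundant of the 10 genes per length in hypothalamus, at 148 ± 83.5 CPM per kb of exon, against 0.254 ± 0.479 in cortex and 0.147 ± 0.115 in brainstem (SD, n = 6 wild types per tissue). The cortical mean rests on wild-type library 2 of the knockout line, and the other 5 cortices averaged 0.0585 ± 0.034 CPM per kb. Kcnh4 ran at 0.867 ± 0.228 CPM per kb in hypothalamus, 9.56 ± 0.429 in cortex and 0.0763 ± 0.015 in brainstem. So the pair whose ends lie 1126 bases apart peak in different tissues. On the log2 scale Hcrt was higher in hypothalamus than in cortex by 9.55 (SE 0.41, edgeR adjusted p = 7.7e-11) and higher than in brainstem by 9.98 (SE 0.44, edgeR adjusted p = 1.4e-10). Its cortex and brainstem levels did not differ beyond their spread (0.43, SE 1.53, edgeR adjusted p = 0.8). Without the 3 pituitary libraries the hypothalamic differences were 9.25 (edgeR adjusted p = 1.6e-08) and 9.70 (edgeR adjusted p = 2.7e-08). Without the cortical library named above, hypothalamus minus cortex was 11.20 and cortex minus brainstem -1.22 (edgeR adjusted p = 4.7e-11 and 0.46). Kcnh4 was lower in hypothalamus than in cortex by a log2 difference of -3.46 (SE 0.11, edgeR adjusted p = 5.1e-15), and higher in cortex than in brainstem by 6.93 (SE 0.16, edgeR adjusted p = 3.5e-17).

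**Figure D1:**
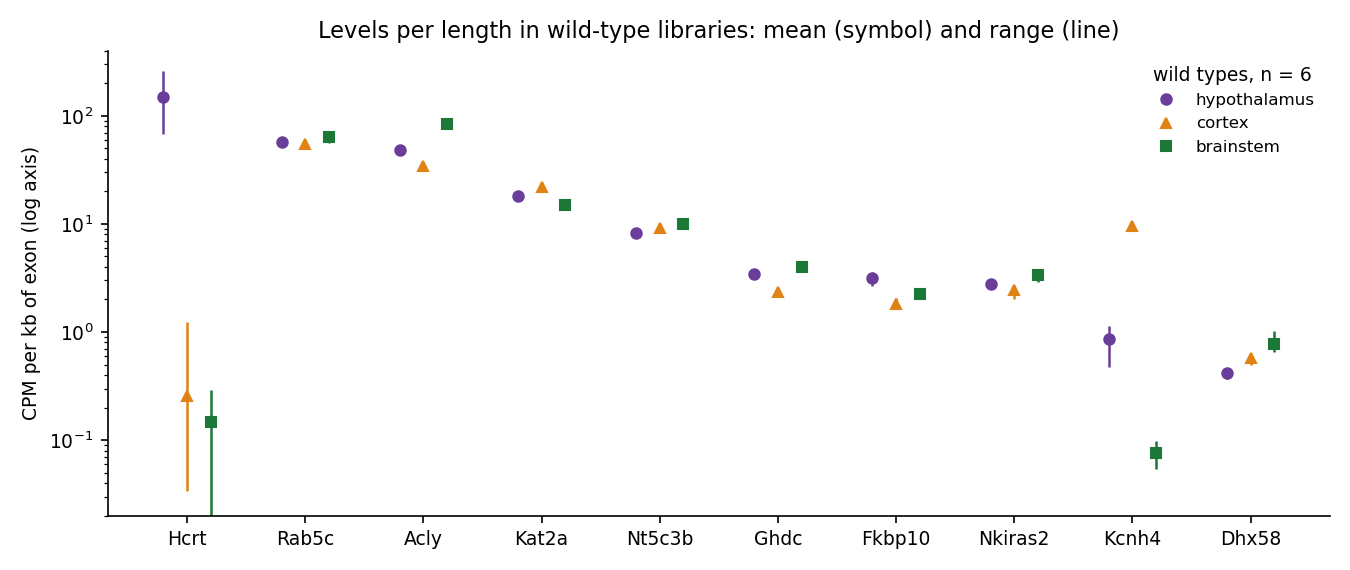
Level of each of the 10 genes in the wild types of both lines, as CPM per kb of exon on a log axis (symbol, mean; line, lowest to highest of 6 libraries; a lowest value of 0 is drawn to the axis). Hcrt stands at 148 in hypothalamus and under 1 on average elsewhere, Kcnh4 at 9.56 in cortex, and the other 8 genes differ little between tissues beside these.

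The remaining genes were expressed in all 3 tissues. Rab5c, a small GTPase of early endosomes, averaged 56.9, 54.7 and 63.1 CPM per kb in hypothalamus, cortex and brainstem. Acly, the ATP citrate lyase that supplies acetyl-CoA for fatty acid and sterol synthesis, averaged 48.3, 34.5 and 84.1 CPM per kb, and was lower in cortex than in brainstem by a log2 difference of -1.29 (edgeR adjusted p = 1.2e-15). Kat2a, a histone acetyltransferase of the SAGA complex, averaged 18.1, 21.9 and 14.9, and was higher in cortex than in brainstem by 0.55 (edgeR adjusted p = 2.1e-09). Nt5c3b, a cytosolic nucleotidase, averaged 8.23, 9.2 and 9.92 CPM per kb. Ghdc averaged 3.42, 2.34 and 4.0 CPM per kb, with a cortex minus brainstem difference of -0.78 (edgeR adjusted p = 2.6e-10). Fkbp10, an endoplasmic reticulum chaperone of collagen, averaged 3.13, 1.81 and 2.26 CPM per kb and was higher in hypothalamus than in cortex by 0.78 (edgeR adjusted p = 4.1e-09). Nkiras2, which binds inhibitors of NF-kappaB, averaged 2.80, 2.46 and 3.4 CPM per kb. Dhx58, a helicase of the RIG-I family that takes part in sensing viral RNA, was the lowest in hypothalamus at 0.422 CPM per kb, with 0.573 in cortex and 0.768 in brainstem.

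Tissue differences past the threshold, an edgeR adjusted p under 0.05, were common among all genes, so their number says little about these 10. Between hypothalamus and cortex 9 of the 10 genes passed, 5 higher and 4 lower in hypothalamus, where 78.7% of all genes tested passed. Between hypothalamus and brainstem all 10 passed, 4 higher and 6 lower in hypothalamus, against 71.5% of all genes. Between cortex and brainstem 9 passed, 2 higher and 7 lower in cortex, against 80.7% of all genes. The exceptions were Rab5c between hypothalamus and cortex (0.06, edgeR adjusted p = 0.21) and Hcrt between cortex and brainstem. Without the 3 wild-type hypothalami that held pituitary transcripts, Rab5c against brainstem (edgeR adjusted p = 0.14), and Nkiras2 and Nt5c3b against cortex (edgeR adjusted p = 0.099 and 0.24) no longer passed. Nkiras2 against cortex (0.19, edgeR adjusted p = 0.018) also missed the threshold with no filter on low counts (0.15) and without hypothalamus 1 or cortex 2 of the ataxin-3 line (0.16 and 0.13). The cortex minus brainstem difference of Nt5c3b (-0.11, edgeR adjusted p = 0.041) missed it when any cortex or brainstem library was left out (-0.12 to -0.09), except brainstem 1 of either line and cortex 3 of the knockout line. It also missed it without the pituitary libraries (-0.10) and under both other filters on low counts (-0.10 and -0.09).

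Of the 7 EAG-type channel genes listed, the family of Kcnh4, 3 were higher and 4 lower in hypothalamus than in cortex, where 40.4% of all genes tested were higher and 38.3% lower. Kcnh3, a channel of the same subfamily, was lower in hypothalamus than in cortex by -4.09 (SE 0.42, edgeR adjusted p = 9.7e-07) and higher in cortex than in brainstem by 7.50 (SE 0.56, edgeR adjusted p = 3.1e-08), much like Kcnh4. Kcnh8, also of that subfamily, went the other way and was higher in hypothalamus than in cortex by 3.93 (SE 0.21, edgeR adjusted p = 5.5e-12). Of the hypocretin receptors, Hcrtr1 was higher in hypothalamus than in cortex by 1.44 (SE 0.08, edgeR adjusted p = 6e-12) and Hcrtr2 by 2.30 (SE 0.09, edgeR adjusted p = 1.1e-14), while neither passed between hypothalamus and brainstem (edgeR adjusted p = 0.073 and 0.81).

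Over the 36 libraries, the genes with the profile most like that of Kcnh4 among 15146 protein-coding genes were Lhx2 (Pearson r 0.955), Nin (0.95), Kcnh3 (0.949), Dusp18 (0.949) and Npnt (0.948). For Hcrt they were Pomc (0.846), Tbx19 (0.845), Plagl1 (0.84), Morc4 (0.839) and Sema3f (0.835). These correlations are on log2 CPM and describe shared differences between tissues, since the libraries of a tissue resemble each other. Pomc and Tbx19 are also genes of the pituitary, whose transcripts stood out in 3 of the 6 wild-type hypothalami, and their part in the correlation was not tested.

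In the transgenic hypothalamus Hcrt fell, and it was the only gene tested that passed the edgeR threshold there (0.00597% of 16738 genes). DESeq2 called 7 genes, and edgeR with no filter on low counts called 2. Its level was 2.07, 2.28 and 2.46 CPM in the transgenic libraries, against 180, 101 and 196 CPM in their wild types. The transgenic mean was 1.43% of the wild-type mean. All 3 transgenic libraries lay below all 3 wild types, with a log2 value of -6.12 (SE 0.30, edgeR adjusted p = 9.5e-06). The reads behind these values were 91, 63 and 122 counts in transgenic mice, so the remaining signal is above the limit of 3 counts that a count of 0 allows. Fewer cells of a type and less RNA per cell cannot be told apart in such tissue RNA. Leaving out the nasal library and the 2 pituitary libraries of these groups left 1 wild type. The transgenic level was then 2.35% of that wild type, with a log2 value of -5.41. With only the 6 libraries compared in the fit the fold change stayed at -6.12 but the adjusted p was 0.12.

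**Figure D2:**
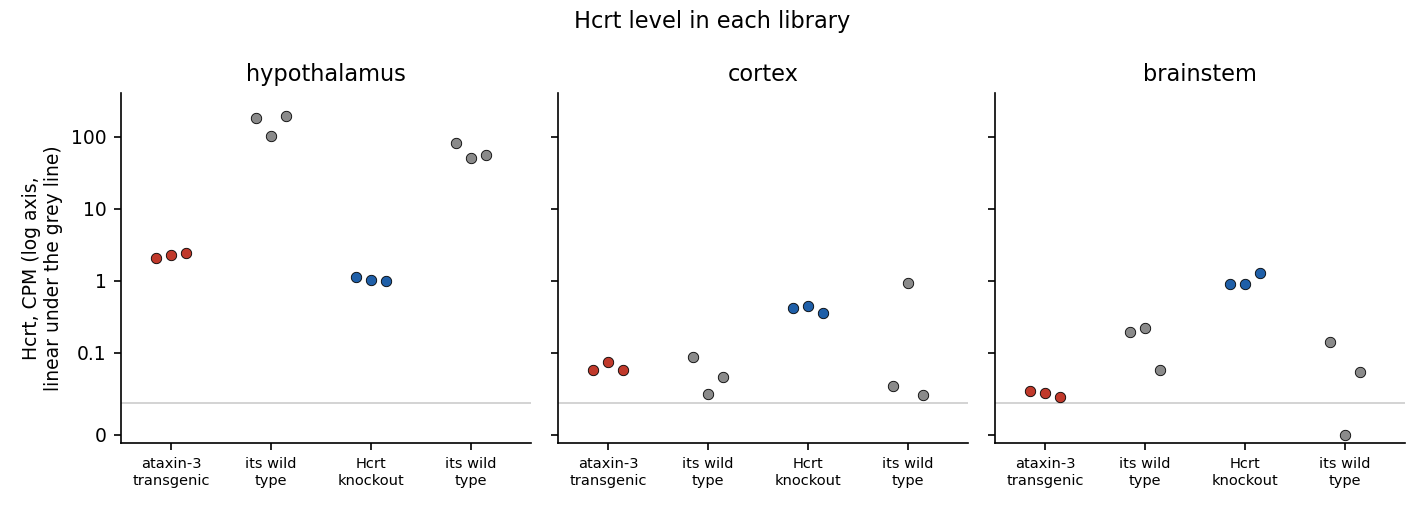
Hcrt level in each library in CPM (log axis, linear under the grey line; each point is 1 library), by tissue and genotype. In hypothalamus the transgenic libraries lie at 2.07 to 2.46 and the knockout libraries at 0.996 to 1.14, all below the wild types at 51.4 to 196, while in brainstem the knockout libraries, from 0.885 upward, lie above all others.

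None of the 9 genes beside Hcrt passed the threshold in the transgenic line in any tissue, with edgeR or DESeq2. In hypothalamus 2 of them, Kcnh4 and Fkbp10, had an unadjusted p under 0.05 (edgeR), as did 697 of all 16738 genes tested. The log2 fold changes of the 9 genes ran between -0.04 and 1.84 in hypothalamus, -0.12 and 0.13 in cortex, and -0.54 and 0.15 in brainstem. In cortex no gene tested passed in edgeR (0%; 839 genes at an unadjusted p under 0.05; 2 genes called by DESeq2), and in brainstem 1 gene passed, none of the 10 (0.00606%). These totals depend on single libraries: without wild type 3 edgeR called 457 genes in transgenic brainstem, again none of the 10, and without transgenic 1 it called 3 in cortex. DESeq2 called 3 genes in brainstem. Ghdc, the nearest neighbour upstream, was 9.26, 9.02 and 8.94 CPM in transgenic hypothalami and 8.68, 9.38 and 8.67 CPM in their wild types, with overlapping ranges (0.04, SE 0.10, edgeR adjusted p = 1). In cortex Kcnh4 was 34.4, 34.3 and 37.9 CPM in transgenic mice and 38.0, 36.7 and 35.7 CPM in wild types, again with overlap (-0.05, SE 0.08, edgeR adjusted p = 0.85).

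A single library set the largest value among the neighbours. Kcnh4 in transgenic hypothalamus was 24.9, 3.62 and 3.28 CPM, against 1.89, 3.09 and 4.13 CPM in the wild types, a difference of 1.84 (SE 0.79, edgeR adjusted p = 1). The high value belongs to library 1, the one with nasal transcripts, and without it the fold change was 0.17. Nkiras2 was 16.4 CPM in that library and 9.13 and 9.24 CPM in the other transgenic libraries, with wild types at 10.7, 9.87 and 9.71 CPM, and its fold change of 0.22 (SE 0.20, edgeR adjusted p = 1) became -0.14 without it. Fkbp10 lay higher in all 3 transgenic hypothalami, at 10.3, 9.24 and 9.38 CPM against 8.58, 7.79 and 7.79 CPM (0.27, SE 0.10, edgeR adjusted p = 1, unadjusted p = 0.016). Without library 1 that value was 0.20.

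In transgenic brainstem Hcrt had 1, 1 and 1 counts, against 5, 4 and 2 counts in wild types. The log2 fold change was -2.23 (SE 0.88) and did not pass (edgeR adjusted p = 0.55), and a level of so few counts cannot be separated from 0 at this depth. Transgenic cortex held 2, 2 and 2 counts, against 3, 1 and 2 counts in wild types.

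In the knockout, low values were not limited to Hcrt. Hypothalamic Hcrt was 1.14, 1.03 and 0.996 CPM in knockouts, against 81.2, 51.4 and 56.1 CPM in their wild types, which puts the knockout mean at 1.68% of the wild-type mean (log2 fold change -5.90, SE 0.31). The tables count over the whole gene and do not show which part of it the remaining 34, 39 and 34 counts come from. Of the 10 genes Hcrt was the lowest relative to wild type in hypothalamus, Kcnh4 in cortex and brainstem, and Ghdc lay below wild type in all 3 tissues.

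Outside the hypothalamus the knockout libraries held more Hcrt reads than most wild types. Brainstem counts were 29, 27 and 42 in knockouts, against 5, 0 and 2 in wild types, and all 3 knockout libraries lay higher (log2 fold change 3.91, SE 0.49). In CPM these levels were 1.03 ± 0.229 in knockouts and 0.0646 ± 0.0711 in wild types (SD, n = 3 each). That knockout level is close to the 1.05 ± 0.0766 CPM of knockout hypothalamus, where the wild types stood at 62.9 ± 16 CPM. In cortex the counts were 17, 10 and 9 in knockouts, against 1, 30 and 1 in wild types, so the groups overlapped (0.33, SE 0.78). Wild-type library 2, with the 30 counts, also held 1.78 CPM of Pmch, a peptide gene of other lateral hypothalamic neurons, against 0.171 and 0.102 CPM in the other wild types. The summed hypothalamus list, which includes Pmch, was 1.88, 3.44 and 6.21 CPM in wild types 1, 2 and 3. It was thus highest in library 3, which had 1 Hcrt count. The part of hypothalamic cells in the Hcrt value of library 2 was not tested, and without library 2 the difference was 3.63.

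Kcnh4, which follows Hcrt on the same strand, was lower in the knockout in every tissue without overlap. Such a lack of overlap is only described here and below, since its share over all genes is not given. In cortex, where the gene is most active, it was 14.6, 12.8 and 16.7 CPM in knockouts, against 40.7, 38.2 and 37.5 CPM in wild types. The knockout mean was 37.8% of the wild-type mean, a log2 fold change of -1.40 (SE 0.08). The cortical levels of the transgenic line and its wild types, 34.3 to 38.0 CPM, lay with those of the knockout line's wild types or just under them, and the 3 knockout libraries stood apart from all 9 others.

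In hypothalamus Kcnh4 was 0.302, 1.11 and 0.352 CPM in knockouts, against 4.45, 3.44 and 3.57 CPM in wild types, or 15.4% of the wild-type mean (-2.67, SE 0.88). Slc17a7, the glutamate transporter gene of cortical neurons, was 2.42, 1.03 and 1.82 CPM in those knockouts and 118, 0.565 and 87.7 CPM in the wild types, so wild-type libraries 1 and 3 carried more cortical transcripts. Wild-type library 2 had 0.565 CPM of Slc17a7 and 3.44 CPM of Kcnh4. The part of cortical transcripts in the difference was not tested. Knockout library 2, which has the highest Kcnh4 of its group, also had the most Omp, at 16.4 CPM against 2.79 and 1.29 CPM. In brainstem Kcnh4 was near the limit of detection, with 1, 4 and 0 counts in knockouts and 12, 10 and 10 counts in wild types (-2.42, SE 0.60), and without knockout library 2 the difference was -3.98. Its relative Kcnh3, encoded elsewhere, was at -2.11 (SE 0.79) in hypothalamus, -0.00 (SE 0.06) in cortex and 0.09 (SE 0.37) in brainstem. Kcnh3 did not pass in any tissue, and Kcnh4 passed in cortex only. Between the hypothalamic wild types of the lines Kcnh3 was at -1.71 (SE 0.78), lower in the ataxin-3 line, and did not pass.

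Ghdc, which precedes Hcrt, was also lower in the knockout in each tissue without overlap. Cortical levels were 3.00, 2.77 and 3.07 CPM in knockouts, against 6.59, 6.14 and 5.90 CPM in wild types, 47.4% of the wild-type mean (-1.07, SE 0.09). Hypothalamic levels were 5.64, 5.24 and 4.66 CPM in knockouts, against 8.88, 9.99 and 9.68 CPM in wild types, 54.4% of the mean (-0.87, SE 0.10). In brainstem the knockouts had 7.05, 6.78 and 8.21 CPM and the wild types 10.3, 11.6 and 11.6 CPM, 65.8% of the mean (-0.60, SE 0.09).

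**Figure D3:**
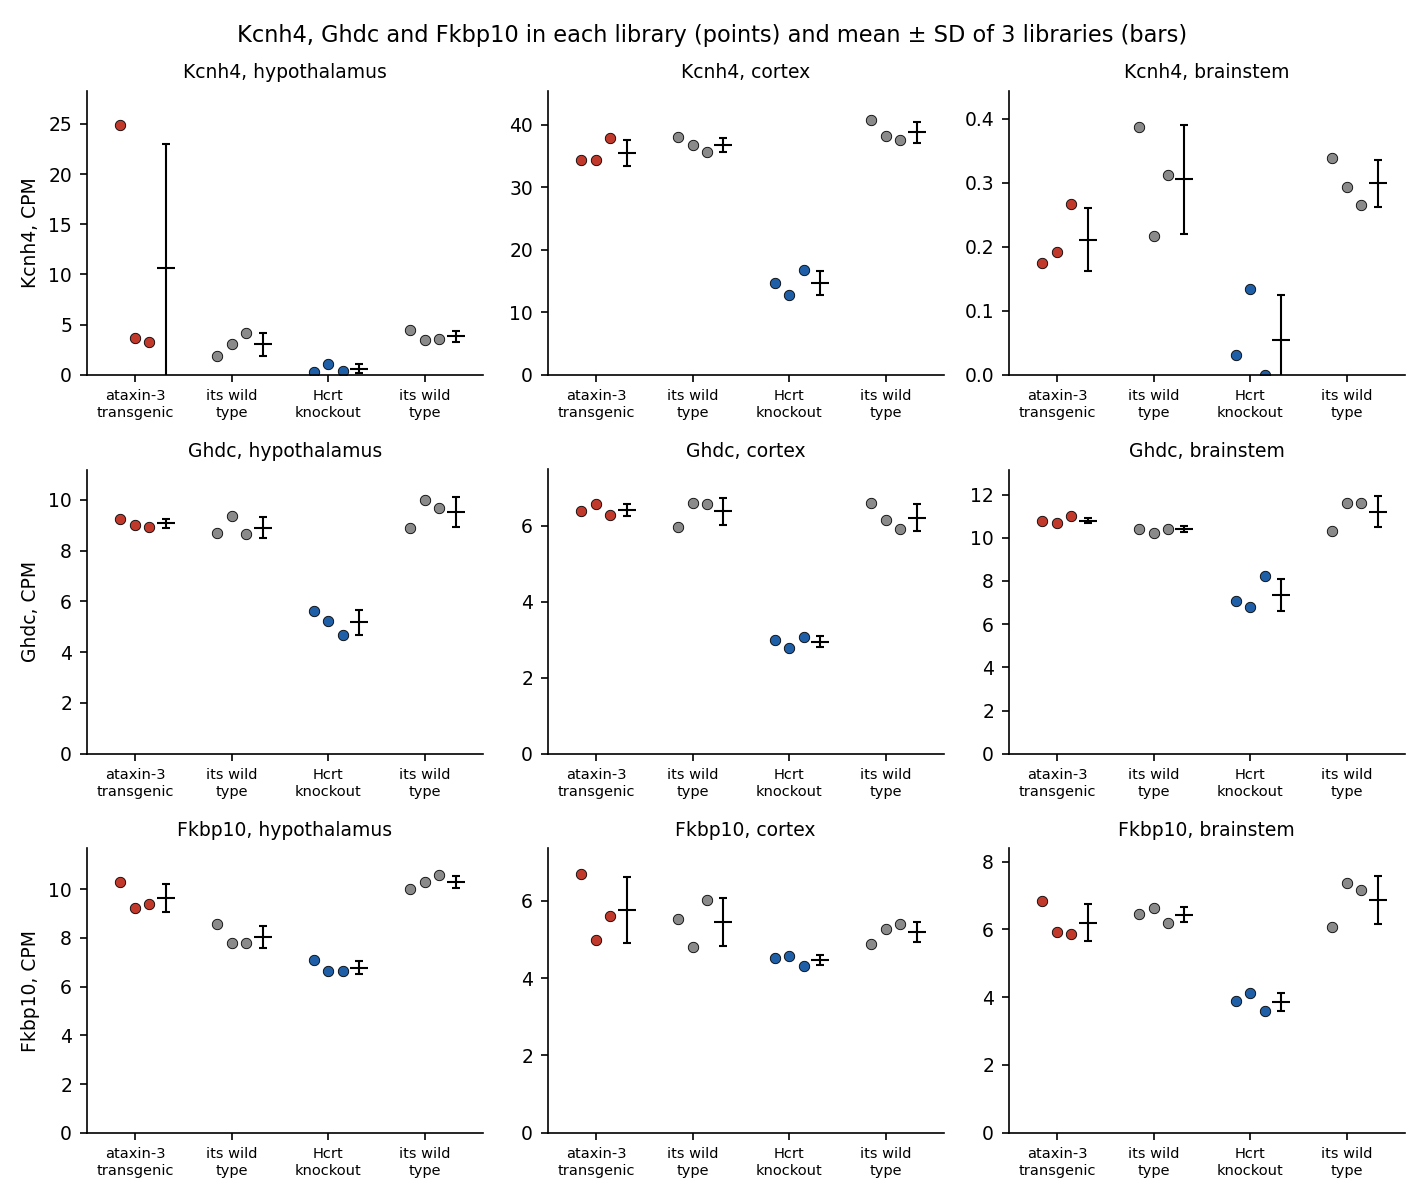
Kcnh4, Ghdc and Fkbp10 in each library in CPM (points), with the mean ± SD of the 3 libraries of a group (bar, drawn down to 0 at most), by tissue and genotype. The Hcrt knockout libraries lie below their wild types in these panels. This is only described, since the share of all genes that do so is not given. In hypothalamus 1 transgenic library, the one with nasal transcripts, stands at 24.9 for Kcnh4.

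Fkbp10, the most distant of the genes, was lower as well. In brainstem it was 3.88, 4.13 and 3.6 CPM in knockouts, against 6.06, 7.37 and 7.16 CPM in wild types, 56.4% of the mean (-0.83, SE 0.11). In hypothalamus the knockouts had 7.08, 6.63 and 6.62 CPM and the wild types 10, 10.3 and 10.6 CPM, 65.8% of the mean (-0.60, SE 0.10). The cortical groups lay closer, at 4.52, 4.57 and 4.31 CPM in knockouts and 4.88, 5.28 and 5.39 CPM in wild types (-0.22, SE 0.12). Fkbp10 shares 193 exon bases with Nt5c3b on the opposite strand, and whether the counting used strand is not given in the sources used here, so both levels are uncertain to that extent. Nt5c3b itself was at 104%, 99.0% and 100% of wild type in hypothalamus, cortex and brainstem.

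Of the 6 genes between Kcnh4 and Fkbp10, Dhx58 lay farthest below wild type in cortex and brainstem. It was 1.30, 1.32 and 1.32 CPM in knockout cortex, against 1.95, 2.09 and 1.61 CPM in wild types (-0.51, SE 0.17), and 2.02, 1.68 and 2.28 CPM in knockout brainstem, against 2.45, 3.33 and 2.62 CPM (-0.49, SE 0.16). Neither tissue showed overlap, while the hypothalamic groups overlapped (-0.16, SE 0.20). The gene shares 141 exon bases with its antisense partner Dhx58os, with the same doubt about strand. Rab5c had log2 fold changes of -0.12 in hypothalamus, -0.13 in cortex and -0.10 in brainstem, and Kat2a of -0.03, -0.13 and -0.05. Nkiras2 differed by -0.16, -0.07 and -0.08, and it overlaps exons of Dnajc7 (287 bases) and Zfp385c (65 bases) on the other strand. Acly stood at -0.00, -0.06 and -0.07, and at 223, 285 and 247 CPM in knockout hypothalami, against 258, 258 and 242 CPM in wild types.

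Counted over the set, 8 of the 9 neighbours of Hcrt had a negative log2 fold change in knockout hypothalamus, 9 in cortex and 8 in brainstem. Their medians were -0.16, -0.13 and -0.10, where the median of all genes was 0.01, -0.00 and 0.00. Past the threshold were Hcrt and Ghdc in hypothalamus (0.0119% of all genes), Kcnh4 and Ghdc in cortex (0.0789%), and Hcrt, Ghdc and Fkbp10 in brainstem (0.0728%). DESeq2 called Fkbp10 in hypothalamus as well (-0.62). Since the genes were chosen with this contrast in view, nothing is read from these counts. As a limit of the counts, Ghdc in hypothalamus no longer passed when any of 9 single libraries was left out of the fit, 4 of them of the ataxin-3 line (-0.92 to -0.80), or without the pituitary and nasal libraries (-0.87), and in brainstem without knockout 1 or 2 or wild type 2 or 3 (-0.58 to -0.55). Without the pituitary and nasal libraries the knockout values in hypothalamus were -5.98 for Hcrt, -2.71 for Kcnh4 and -0.59 for Fkbp10.

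A relation of the knockout differences to distance from Hcrt was not tested. The other 30 genes of the window, 22 of them tested in each tissue, had none past the threshold in knockouts with edgeR. Of these 22, 3, 7 and 3 had an unadjusted p under 0.05 (edgeR) in hypothalamus, cortex and brainstem. Among all genes tested, 651 of 16738, 543 of 16479 and 534 of 16493 did. Within the window, DESeq2 called Stat5a in hypothalamus and brainstem, Tubg1 in cortex and Tubg2 in brainstem. The medians of the 22 genes were -0.02 in hypothalamus, -0.07 in cortex and 0.02 in brainstem. At the ends of the set, P3h4, a collagen-modifying protein gene 346 kb from Hcrt and just beyond Fkbp10, was at 0.14, 0.13 and 0.12 in knockouts. Stat5b, 17.8 kb from Hcrt and the first protein-coding gene beyond Ghdc, was at -0.20, -0.30 and -0.14. Stat5a, 96.4 kb away and singled out after its values were seen, had -0.87 (SE 0.17) in hypothalamus, -0.73 (SE 0.21) in cortex and -0.65 (SE 0.12) in brainstem. Both encode transcription factors of cytokine and hormone signalling.

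**Figure D4:**
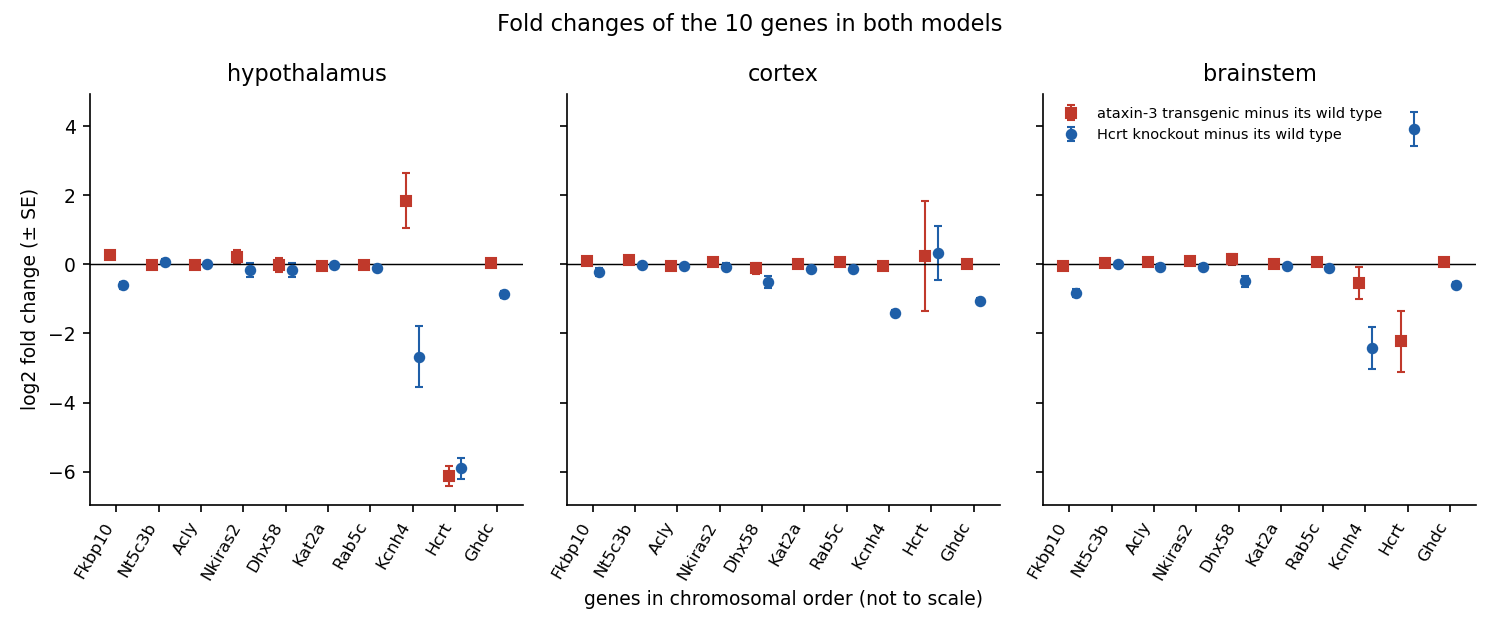
Log2 fold change (± SE) of the 10 genes in chromosomal order, for the ataxin-3 transgenic (squares) and the Hcrt knockout (circles) against their own wild types, in each tissue. Kcnh4, Ghdc and Fkbp10 lie below 0 in the knockout in every tissue, for example at -1.40, -1.07 and -0.22 in cortex, while in the transgenic line Hcrt in hypothalamus, at -6.12, is the only one of the 10 past the threshold.

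The models share no control library, so their values can be set side by side. Cortical Kcnh4 was -0.05 (SE 0.08) in the transgenic line and -1.40 (SE 0.08) in the knockout, and cortical Ghdc was 0.01 (SE 0.08) and -1.07 (SE 0.09). Brainstem Fkbp10 was -0.05 (SE 0.11) in the transgenic line and -0.83 (SE 0.11) in the knockout. For hypothalamic Hcrt the values were -6.12 (SE 0.30) and -5.90 (SE 0.31). The difference between the models was not tested, since the knockout side chose the genes.

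Between the wild types of the lines, no gene tested passed the threshold in edgeR in any tissue (0%), although an unadjusted p under 0.05 was reached by 383 hypothalamic, 538 cortical and 2451 brainstem genes. DESeq2 called 2, 17 and 254 genes. In brainstem a single library decides the absence of calls, since without ataxin-3 line wild type 3 edgeR called 1177 genes, none of them among the 10, and with no filter on low counts it called 19. In cortex it called 16 with only the groups compared, 15 without transgenic 1 and 2 without knockout line wild type 1, and in hypothalamus 3 without knockout line wild type 2. Hypothalamic Hcrt was nonetheless higher without overlap in the ataxin-3 line, at 180, 101 and 196 CPM, against 81.2, 51.4 and 56.1 CPM in the knockout line, or 253% of its mean (1.34, SE 0.23, unadjusted p = 0.00013, edgeR adjusted p = 1). DESeq2 gave that difference an adjusted p of 7e-05, and edgeR one of 0.015 without ataxin-3 line wild type 2. Both libraries at the top, 1 and 3, also held pituitary transcripts. Without the pituitary and nasal libraries the difference was 0.60, which rests on 1 ataxin-3 line wild type, library 2 at 101 CPM. Pmch, a second peptide gene of lateral hypothalamic neurons, was 664, 571 and 698 CPM in the ataxin-3 line wild types. It was 468, 454 and 403 CPM in the knockout line's (0.55, SE 0.22). Qrfp, also a neuropeptide gene of the hypothalamus, went the other way (-0.40, SE 0.20), and neither passed. The median over the 10 genes of the hypocretin list was 0.11. The part of dissection in the Hcrt difference was not tested.

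Among the neighbours the wild types were close. Their log2 differences ran between -0.35 and 0.10 in hypothalamus, -0.10 and 0.07 in cortex, and -0.34 and 0.06 in brainstem, leaving no call with edgeR or DESeq2. Fkbp10 in hypothalamus was lower without overlap in the ataxin-3 line, at 8.58, 7.79 and 7.79 CPM, against 10, 10.3 and 10.6 CPM in the knockout line (-0.35, SE 0.10, unadjusted p = 0.0032, edgeR adjusted p = 1). Cortical Kcnh4 was 36.8 ± 1.13 CPM in the ataxin-3 line and 38.8 ± 1.69 CPM in the knockout line, and cortical Ghdc was 6.37 ± 0.351 and 6.21 ± 0.35 CPM (SD, n = 3 each), both within the spread of the libraries.

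The pathways around the 10 genes, followed through 8 gene lists, held few genes that differed by genotype. In 72 comparisons of a list with a genotype contrast in a tissue, 0 of the 86 listed genes, none of them among the 10, passed the edgeR threshold. Of 756 tests, 47 had an unadjusted p under 0.05 (edgeR). Over all genes, the number per contrast lay between 383 of 16738 in hypothalamic wild types and 2451 of 16493 in brainstem wild types. DESeq2 called Qrfp in transgenic hypothalamus and Kcnh7 between the brainstem wild types. The medians of the lists lay between -0.38 and 0.16. The hypocretin receptors had knockout values of 0.15 (SE 0.17) for Hcrtr1 and 0.23 (SE 0.12) for Hcrtr2 in hypothalamus, and transgenic values of -0.12 (SE 0.17) and 0.11 (SE 0.12). Qrfp, another neuropeptide gene of the hypothalamus, was at -1.18 (SE 0.21, edgeR adjusted p = 0.42) in transgenic hypothalamus. Between tissues the lists varied widely, in contrasts where most genes passed: 40.4% of all genes were higher and 38.3% lower in hypothalamus than in cortex, and 39.4% higher and 41.3% lower in cortex than in brainstem. In the interferon list that goes with Dhx58, 12 of 13 genes were higher in hypothalamus than in cortex, as with Mavs at 1.48. Between cortex and brainstem 12 of 13 were lower in cortex, as with Mavs at -1.08. Dhx58 went the other way in the first contrast, at -0.43 (edgeR adjusted p = 0.0018). It went the same way in the second, at -0.42 (edgeR adjusted p = 0.0018). The lipid synthesis list that goes with Acly had 10 of 13 genes lower in cortex than in brainstem and 2 higher, with Me1, malic enzyme, at -1.05 and the desaturase Scd1 at -1.27 beside -1.29 for Acly. In the collagen list that goes with Fkbp10, 8 of 13 genes were higher in hypothalamus than in cortex and none lower, with the chaperone Serpinh1 at 1.07 beside 0.78 for Fkbp10. Of the SAGA complex genes, 6 of 13 were higher and 5 lower in hypothalamus than in cortex. The corresponding numbers were 4 and 3 of 9 for partners of RAB5, and 1 and 2 of 7 for NF-kappaB inhibitors.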

How the data were processed

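Polyadenylated RNA was sequenced in 36 libraries after stranded library preparation, per the labels' protocols. The authors deposited raw read counts per Ensembl gene for each library. Per the submitters' processing notes the tools were cutadapt 1.2.1, TopHat2 2.0.9 and HTSeq 0.5.4p3 with GRCm38; the sources used here give neither a strand setting nor an annotation release. The 5 special lines for unassigned reads, 24.7% to 42.0% of a library's total, entered neither library sizes nor tests. Symbols came from GENCODE M21 and matched 37607 of 38924 identifiers.

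The 12 libraries of a tissue entered 1 fit in R 4.3.3 with edgeR 4.0.16 (TMM, filterByExpr, robust quasi-likelihood test, Benjamini-Hochberg adjustment over all genes tested), and the 18 wild-type libraries another for tissues. The threshold was an adjusted p of 0.05. The filters left 16738, 16479, 16493 and 17440 genes for hypothalamus, cortex, brainstem and wild types. Variation between libraries, which may be technical, was estimated at 18%, 7.35%, 9.03% and 9.95% in that order. Dividing the size of a log2 fold change by the root of its F statistic gave the SE. Levels per kb divide CPM by the exon length of the gene. Likeness used log2 CPM with a prior count of 2. A count of 0 allows up to 3 counts, which covers counting error only. Groups said to lie without overlap are only described, since the share of all genes that do so is not given. The fits were also run on simulated counts, with the same spread for every gene of a tissue and no mixed dissections. These libraries differ from that setting, so nothing is read from the simulation. Same-numbered libraries deviated together, with a correlation over 0.1 in every pair, in knockout brainstem (0.131 to 0.535) and transgenic hypothalamus (0.141 to 0.302); this pairing comes from the data, not from the labels, and was not met in the other comparisons.

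The 10 genes and the 8 gene lists were chosen with earlier results of these data known. Beside the 10 genes, the text names by rule other window genes past the threshold, Hcrtr1, Hcrtr2, the 5 genes most like Hcrt and Kcnh4 and up to 3 genes per list with the smallest p; marker genes, P3h4, Stat5b, Stat5a, Kcnh3 and genes set beside a member were named after their values were seen. One listed SAGA gene had no row under its symbol. Alternatives were DESeq2 1.42.0, other factors, other filters, only the groups compared, a replicate block, leaving out single libraries and leaving out the pituitary and nasal libraries.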

Additional observations from a re-analysis of the deposited data

Results flagged for a closer look

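Results were singled out where every library of 1 group moved one way and every library of another the opposite way. The share of all genes that do so is not given, and the difference between such movements was not tested. Hcrt in the knockout had a log2 fold change of -5.90 in hypothalamus and 3.91 in brainstem, with all knockout libraries lower in the first tissue and all higher in the second. In brainstem Hcrt was at -2.23 in the transgenic line and 3.91 in the knockout, where the wild-type libraries of both lines held at most 5 counts. Brainstem Ghdc was at 0.07 in the transgenic line, all 3 libraries higher, and at -0.60 in the knockout, all 3 lower. That transgenic value was smaller than its SE of 0.09 (edgeR adjusted p = 0.89). Hypothalamic Fkbp10 was at 0.27 in the transgenic line and -0.60 in the knockout. None of the transgenic values named here passed the threshold.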

How the results depend on the processing

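In knockout hypothalamus, a contrast that chose the genes and from which nothing is read, 2 of the 10 genes were past the threshold. DESeq2 called Fkbp10 (-0.62) in addition. The number was 1 with only the groups compared, with a replicate block and without the pituitary and nasal libraries. Leaving out single libraries gave 1 to 2. In transgenic hypothalamus the number was 1, and 0 with only the groups compared. Between the hypothalamic wild types it was 0, and 1 with DESeq2 or at most when single libraries were left out. The replicate block changed no other count of the 10 genes. The same-numbered libraries correlated over 0.1 in all 3 pairs in knockout brainstem and transgenic hypothalamus; elsewhere at least 1 pair did not, and the number is treated there as a name. Without the pituitary and nasal libraries, transgenic hypothalamic values changed sign for Ghdc (-0.07), Dhx58 (0.08), Nkiras2 (-0.11) and Acly (0.05). Wild-type values changed sign for Rab5c (-0.01), Dhx58 (-0.05), Nkiras2 (-0.02), Kat2a (0.06) and Acly (-0.02). In that setting both contrasts rest on 1 ataxin-3 line wild type. With no filter, Rab5c between the hypothalamic wild types was at -0.00. None of these had passed the threshold, and the cause was not tested.

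When single libraries were left out, signs changed for values that had not passed. In transgenic brainstem these were Kat2a (-0.01 to 0.05) and Nt5c3b (-0.00 to 0.11), and between brainstem wild types Kcnh4 (-0.12 to 0.21) and Acly (-0.10 to 0.03). In transgenic cortex they were Hcrt (-0.05 to 0.69), Ghdc (-0.04 to 0.03), Nkiras2 (-0.02 to 0.19), Kat2a (-0.02 to 0.05) and Fkbp10 (-0.04 to 0.17). Between cortical wild types they were Hcrt (-3.16 to 0.76), Rab5c (-0.07 to 0.02), Dhx58 (-0.12 to 0.08), Nkiras2 (-0.21 to 0.01), Kat2a (-0.02 to 0.04) and Fkbp10 (-0.01 to 0.15). In transgenic hypothalamus they were Rab5c (-0.05 to 0.01), Dhx58 (-0.12 to 0.03), Nkiras2 (-0.14 to 0.37), Kat2a (-0.10 to 0.02), Nt5c3b (-0.07 to 0.06) and Acly (-0.05 to 0.03). Between hypothalamic wild types they were Rab5c (-0.04 to 0.03), Nkiras2 (-0.02 to 0.06), Kat2a (-0.06 to 0.06), Nt5c3b (-0.04 to 0.08) and Acly (-0.00 to 0.05). Hcrt between cortex and brainstem ran from -1.22 to 0.99. Values at so few counts, as for Hcrt outside hypothalamus and Kcnh4 in brainstem, are limited by depth.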
